A study of Mus musculus with 8 samples.

Results

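The pyruvate dehydrogenase complex, its regulatory kinases and phosphatases, and pyruvate carboxylase were described in white quadriceps of mice without and with muscle Acot2. The 10 genes were chosen by name: Pdha1, Pdhb, Dlat and Pdhx of the complex, the kinases Pdk1, Pdk2 and Pdk4, the phosphatases Pdp1 and Pdp2, and Pcx. All 10 were found among the 54091 genes of the deposited table, and all 10 passed the filter on low values (10 or more normalized reads in 4 or more libraries). Dld, Pdk3, Pdpr and Pdha2, which also belong to this system, were read beside them.

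Each of the 8 libraries was made from the white quadriceps of 1 male mouse, fed chow, 11 to 14 weeks old and sampled in the morning. The 4 Cre mice carried the genotype CKM Cre, in which a recombinase under the muscle creatine kinase promoter deletes Acot2 in muscle. The 4 Loxp mice were Loxp/Loxp, with loxP sites on both alleles, and no recombinase is named for them, so Cre itself also separates the groups. The Ckm promoter is active in muscle fibres, so other cells in the piece of muscle keep the gene. Total reads ran from 30415429 to 48834283 per library. In bulk RNA, fewer cells of a type and less RNA per cell cannot be told apart.

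Pyruvate, the end product of glycolysis, enters mitochondria and has 2 main fates there. The pyruvate dehydrogenase complex turns it irreversibly into acetyl-CoA through an E1 enzyme (Pdha1 and Pdhb), an E2 core (Dlat) with its E3-binding protein (Pdhx), and E3 (Dld), whereas pyruvate carboxylase (Pcx) turns it into oxaloacetate. Pyruvate dehydrogenase kinases phosphorylate the E1 alpha subunit and switch the complex off, and the phosphatases Pdp1 and Pdp2 switch it on again. In skeletal muscle, Pdk4 is known as the kinase whose mRNA climbs during fasting and high lipid supply, when fibres spare glucose and burn fatty acids. Acot2 is a mitochondrial thioesterase that releases fatty acid and CoA from long-chain acyl-CoA, so the comparison of Cre with Loxp muscle bears on whether this glucose-sparing switch differs when the thioesterase is missing.

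The labels were first checked with Acot2 itself. It had 43.8, 42.8, 53.7 and 48.9 normalized reads in Cre replicates 1 to 4, against 213, 149, 251 and 240 in Loxp replicates 1 to 4. A normalized read is a read count divided by 1 factor per library. The groups did not overlap, and Acot2 fell by 2.13 on the log2 scale in Cre muscle (SE 0.18, limma adjusted p = 0.000962). With Kbtbd12, which rose, Acot2 made up all 2 genes called among 13638 tested, or 0.0147%. None of the 10 members was called, and the limma adjusted p was 0.9995 for each. In none of them did the groups separate, against 1.92% of all tested genes in which all Cre libraries lay above (0.924%) or all below (0.997%) the Loxp libraries. By the unadjusted p, 1 of 10 members, Pcx, was under 0.05 and lower in Cre muscle, against 2.91% of tested genes in either direction and 1.72% lower in Cre. The median log2 fold change of the members was 0.071, with 6 above 0 and 4 below, and that of all tested genes was 0.0049, with 51.7% above 0.

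**Figure D1:**
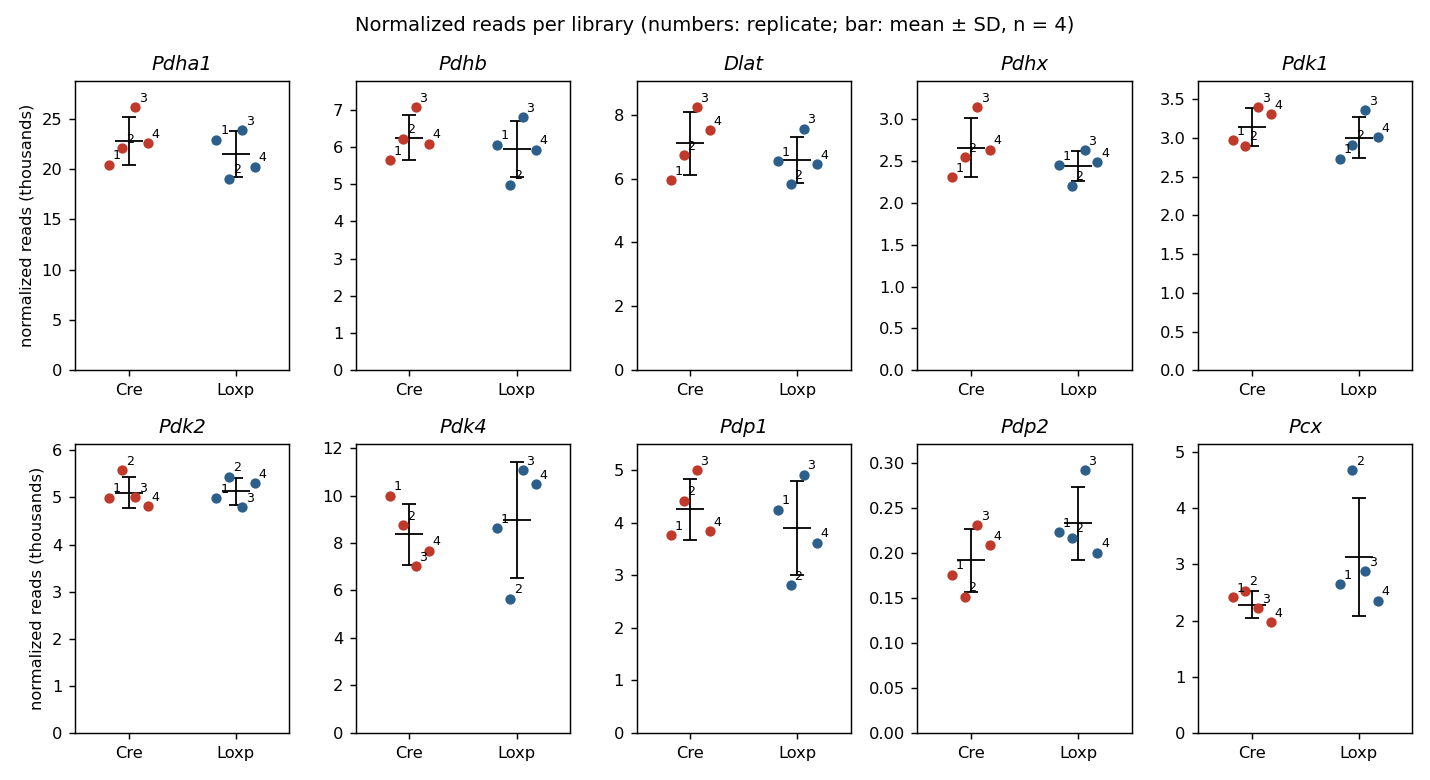
Normalized reads of the 10 genes (vertical axes in units of 1000, each from 0) in the 4 Cre and 4 Loxp libraries, with the replicate number beside each point and the mean ± SD as a bar. The Cre and Loxp points overlap for every gene, and Loxp replicate 2 stands high for Pcx (4683 normalized reads) and low for Pdk4 (5647).

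The E1 subunits were abundant and close between the groups. Pdha1, the E1 alpha subunit that the kinases phosphorylate, had 20416, 22035, 26123 and 22578 normalized reads in Cre libraries, against 22909, 19011, 23846 and 20213 in Loxp libraries. Pdha1 gave a log2 fold change of 0.084 (SE 0.095, 95% interval between -0.12 and 0.29). Pdhb, the E1 beta subunit, had 5636, 6217, 7064 and 6088 normalized reads in Cre libraries, against 6056, 4989, 6802 and 5921 in Loxp libraries, a log2 fold change of 0.077 (SE 0.096, 95% confidence interval -0.13 to 0.29). For both genes Cre replicate 3 was the highest of the 8 libraries and Loxp replicate 2 the lowest, so the spread within each group was wider than the distance between the means. An exon of Pdha1 overlaps an exon of Map3k15 on the opposite strand by 425 bases, and the sources used here do not say whether reads were counted by strand. Map3k15 itself held at most 36.5 normalized reads. Of the stretches of 50 bases in the Pdhb transcripts, 11.4% also occur in transcripts of other genes, most of them in the predicted gene Gm6123, which held at most 11.4 normalized reads.

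The E2 core and its partner behaved alike. Dlat, the dihydrolipoamide acetyltransferase, had 5950, 6721, 8229 and 7517 normalized reads in Cre libraries, against 6535, 5823, 7563 and 6442 in Loxp libraries. This gave a log2 fold change of 0.10 (SE 0.10, 95% interval between -0.13 and 0.33). Pdhx, which anchors E3 to the core, had 2307, 2549, 3145 and 2639 normalized reads in Cre libraries, against 2449, 2209, 2634 and 2491 in Loxp libraries, a log2 fold change of 0.11 (SE 0.092, 95% confidence interval -0.087 to 0.32). Cre replicate 3 was again the highest library for both. The other 3 Cre values lay inside the Loxp range for Dlat, and for Pdhx Cre replicates 1 and 2 did, with Cre replicate 4 just above it. Dld, the E3 enzyme that the complex shares with the oxoglutarate and branched-chain dehydrogenases, averaged 7552 ± 903 normalized reads in Cre and 7011 ± 662 in Loxp muscle (SD, n = 4 each). The testis paralogue Pdha2 had 0 reads in all 8 libraries, which allows up to 3 reads in each.

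Seen library by library, the 5 subunit genes moved together whatever the genotype. Pdha1, Pdhb, Dlat, Pdhx and Dld were all highest in Cre replicate 3 and all lowest in Loxp replicate 2, a pattern shared by 969 of the 13638 tested genes (7.11%). Their mean log2 deviation from each gene's own average was 0.26 in Cre replicate 3 and -0.14 in Cre replicate 1, and 0.11 in Loxp replicate 3 and -0.23 in Loxp replicate 2. The 2 mitochondrial pyruvate carrier subunits, Mpc1 and Mpc2, and the phosphatase subunits Pdp1 and Pdpr had the same highest and lowest libraries. The genes of oxidative fast fibres also differed between these pieces of muscle. Myh2, which encodes their myosin, had 4409, 6512, 50678 and 51585 normalized reads in Cre libraries, against 7832, 797, 73690 and 50366 in Loxp libraries. Loxp replicate 2, lowest for the subunits, was lowest for Myh2. Cre replicate 3, highest for the subunits, was below Cre replicate 4 and Loxp replicate 3 for Myh2. Mb was highest in Cre replicate 3 (43704 normalized reads) and lowest in Loxp replicate 2 (6155), as the subunits were. Ckmt2 and Csrp3 were also lowest in Loxp replicate 2, but Ckmt2 was highest in Loxp replicate 3 and Csrp3 in Loxp replicate 4. The summed level of the 4 oxidative fast markers ran from 33512 to 131006 normalized reads in Cre libraries and from 22340 to 148800 in Loxp libraries, with no marker at 0. The part of fibre type in the subunits' spread was not tested.

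**Figure D2:**
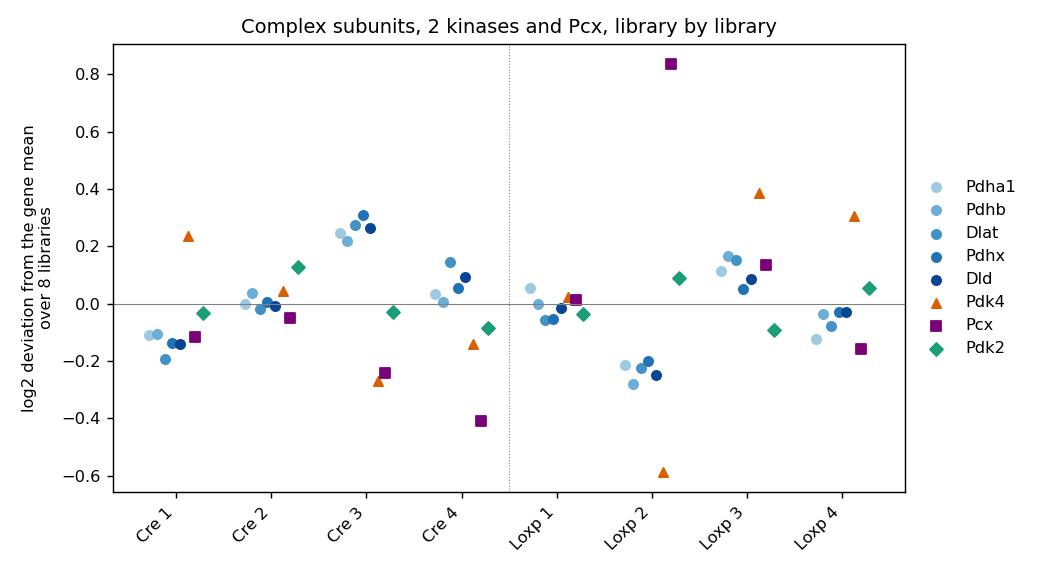
Log2 deviation of each gene from its own mean over the 8 libraries (vertical axis) in each Cre and Loxp library (horizontal axis). The 5 subunit genes, in blue, lie close together in every library, from -0.28 to -0.20 in Loxp replicate 2 and from 0.22 to 0.31 in Cre replicate 3, while Pdk4 and Pcx scatter away from them.

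Expressed per kilobase of exon, with all annotated exons of a gene joined, the members spanned a wide range of levels. The order of genes depends on the length used. Joined exons and longest coding transcript hold 3861 and 1513 bases for Pdhb, and 3930 and 2506 for Pdhx. For Pdk2 they hold 3163 and 2246 bases, and for Pdk4 3511 and 3484. All levels, ratios and shares per kilobase given here use the joined exons, and transcript lengths would raise Pdhb most. Averaged over the 8 libraries, the order in normalized reads per kilobase was Pdha1 (5930), Pdk4 (2466), Pdk2 (1617), Pdhb (1579), Dlat (1401), Pdp1 (905), Pdhx (650), Pcx (571), Pdk1 (395) and Pdp2 (37.3). The ranges over libraries of each gene and the next in that order overlapped, apart from 3 gaps: below Pdha1, between Dlat and Pdp1, and above Pdp2. Pdha1 led with 6103 ± 644 normalized reads per kilobase in Cre and 5756 ± 606 in Loxp muscle (SD, n = 4 each). Pdhb stood at 0.27 of the Pdha1 level in both groups (0.266 ± 0.0056 in Cre and 0.267 ± 0.015 in Loxp, SD). Dlat stood at 2.15 ± 0.098 times Pdhx in Cre muscle and at 2.16 ± 0.10 times in Loxp muscle, on the same per-kilobase scale. As a share, Pdhx made up 31.8% ± 0.96 of Dlat plus Pdhx in Cre and 31.6% ± 0.98 in Loxp muscle (SD, n = 4 each). That share differed by 0.16 percentage points (exact two-sided permutation p = 0.657, adjusted p = 0.914 over 6 shares).

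The promoters of Pdha1, Pdhb, Dlat and Pdhx are shown because their mRNAs moved together across the libraries, and that of Pdk4 as the kinase with the most reads. Each is a window of 300 bases, from 250 before to 50 after the annotated start, taken from RefSeq on GRCm38.p6, which held such windows for 9 of the 10 members and none for Pdp1. Capitals mark the GC box GGGCGG, the element bound by Sp1-family factors, on either strand.
Pdha1 (chrX:160138381-160138680, minus strand): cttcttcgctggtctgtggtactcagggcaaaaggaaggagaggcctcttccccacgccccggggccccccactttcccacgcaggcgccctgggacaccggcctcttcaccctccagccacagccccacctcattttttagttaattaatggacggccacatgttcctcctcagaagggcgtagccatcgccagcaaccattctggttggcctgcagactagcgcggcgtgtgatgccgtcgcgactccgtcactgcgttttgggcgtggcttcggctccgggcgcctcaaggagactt
Pdhb (chr14:8172943-8173242, minus strand): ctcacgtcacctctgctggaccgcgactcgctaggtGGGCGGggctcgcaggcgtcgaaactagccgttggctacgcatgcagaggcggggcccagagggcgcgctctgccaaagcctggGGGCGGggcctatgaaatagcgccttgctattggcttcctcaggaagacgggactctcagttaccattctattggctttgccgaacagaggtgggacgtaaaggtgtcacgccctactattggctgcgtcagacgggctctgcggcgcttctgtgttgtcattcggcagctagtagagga
Dlat (chr9:50659731-50660030, minus strand): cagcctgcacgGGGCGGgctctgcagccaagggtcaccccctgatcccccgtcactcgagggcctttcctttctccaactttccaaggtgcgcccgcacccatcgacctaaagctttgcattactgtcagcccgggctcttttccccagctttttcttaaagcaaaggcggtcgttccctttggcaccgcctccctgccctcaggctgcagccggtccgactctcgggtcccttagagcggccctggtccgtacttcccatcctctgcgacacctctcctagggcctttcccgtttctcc
Pdhx (chr2:103073464-103073763, minus strand): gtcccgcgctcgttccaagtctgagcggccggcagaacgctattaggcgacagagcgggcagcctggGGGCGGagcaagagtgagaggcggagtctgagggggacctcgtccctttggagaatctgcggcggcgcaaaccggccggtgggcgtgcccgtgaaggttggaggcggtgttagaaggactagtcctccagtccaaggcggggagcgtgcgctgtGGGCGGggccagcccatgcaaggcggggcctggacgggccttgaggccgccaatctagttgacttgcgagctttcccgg
Pdk4 (chr6:5496229-5496528, minus strand): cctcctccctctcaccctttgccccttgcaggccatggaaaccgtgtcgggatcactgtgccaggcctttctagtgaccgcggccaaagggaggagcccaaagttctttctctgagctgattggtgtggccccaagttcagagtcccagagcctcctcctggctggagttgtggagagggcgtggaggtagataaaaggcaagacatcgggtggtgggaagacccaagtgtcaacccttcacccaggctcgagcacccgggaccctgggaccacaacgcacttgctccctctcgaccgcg

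Pdhb and Pdhx hold 2 GC boxes each and Dlat holds 1, and the windows of Pdha1 and Pdk4 hold none. Of 32851 such windows of mouse genes, 35.7% hold at least 1 GC box. All 5 windows are rich in G and C (60.7% in Pdk4 to 67.3% in Pdhx), against a median of 52.7% over all windows. The other motifs searched on both strands were TATAAA, the TATA box (in 13.6% of all windows), the nuclear respiratory factor 1 motif (4.6%), AAGGTCA for estrogen-related receptors (4.72%), the PPAR direct repeat (0.0396%), GTAAACA for FoxO factors (3.65%) and the E-box CACGTG (7.15%). None of these motifs occur in the 5 windows shown, which says nothing of sites elsewhere or of other spellings. Among the other members, Pdk1 and Pcx hold 2 GC boxes each and Pdp2 holds 1, so the GC box is not particular to the subunits. The E-box occurs once in 1 window each of Pdk2, Pdp2 and Pcx, and no 2 of these matches overlap. Pdk1, Pdk2 and Pcx have a further window at another annotated start, and none of the searched motifs occur there.

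Of the kinases, Pdk4 had the most reads in every library. Per kilobase of joined exons, it also had the most mRNA in all but Loxp replicate 2. By the longest coding transcripts (3484 bases for Pdk4, 2246 for Pdk2), Pdk2 would lead in Cre replicate 3 as well. Pdk4 had 9984, 8744, 7027 and 7679 normalized reads in Cre libraries, against 8619, 5647, 11074 and 10487 in Loxp libraries. Loxp replicates 3 and 4 were the highest and Loxp replicate 2 the lowest of all 8, so every Cre value fell within the Loxp range. The gene lies on the minus strand at chr6:5483351-5496309 (GRCm38). Pdk4 gave -0.066 on the log2 scale (SE 0.19, 95% interval between -0.48 and 0.35). Its SD over the 8 libraries, on the log2 scale, stood at percentile 74.2 of all tested genes. The sign turned when 1 library was left out: the log2 fold change was 0.013 without Cre replicate 3, 0.052 without Loxp replicate 3 and 0.026 without Loxp replicate 4, and -0.27 without Loxp replicate 2 (limma unadjusted p = 0.0484, adjusted p = 0.9999).

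Pdk2, the kinase found in most tissues, was the steadiest member. It had 4993, 5582, 5005 and 4818 normalized reads in Cre libraries, against 4988, 5437, 4799 and 5304 in Loxp libraries, and a log2 fold change of -0.0096 (SE 0.065, 95% confidence interval -0.15 to 0.13). Highest over lowest library was 1.16 for Pdk2, against 1.96 for Pdk4. Pdk1, a target of hypoxia-inducible factor, had 2970, 2901, 3398 and 3309 normalized reads in Cre libraries, against 2737, 2916, 3363 and 3010 in Loxp libraries, and a log2 fold change of 0.066 (SE 0.078, 95% confidence interval -0.10 to 0.24). The groups overlapped for both genes. Pdk3 was at the edge of detection, with 32.8, 15.9, 36.5 and 19.1 normalized reads in Cre libraries, against 35.2, 39.2, 20.1 and 51.9 in Loxp libraries, or 13 to 48 counted reads.

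In reads per kilobase, Pdk4 made up 59.0%, 53.7%, 49.6% and 52.8% of the 4 kinases' mRNA in Cre libraries, against 55.8%, 43.3%, 61.7% and 58.9% in Loxp libraries. The mean share was 53.8% ± 3.92 in Cre and 54.9% ± 8.14 in Loxp muscle (SD, n = 4 each), with p = 0.857 from an exact permutation test (two-sided, 70 relabellings, adjusted p = 0.914 over 6 shares). Pdk2 supplied most of the rest, with 36.7% ± 2.81 in Cre and 36.2% ± 7.15 in Loxp muscle (exact permutation p = 0.914, adjusted p = 0.914). In Loxp replicate 2 the order was reversed, and Pdk2 with 46.2% led Pdk4. Pdk1 held 9.27% ± 1.5 in Cre and 8.54% ± 1.08 in Loxp muscle (exact permutation p = 0.4, adjusted p = 0.8), and Pdk3 held 0.233% ± 0.097 in Cre and 0.319% ± 0.119 in Loxp muscle (exact permutation p = 0.286, adjusted p = 0.8). With 4 against 4 libraries the smallest p that this test can give is 0.0286. None of the 6 shares passed this test.

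**Figure D3:**
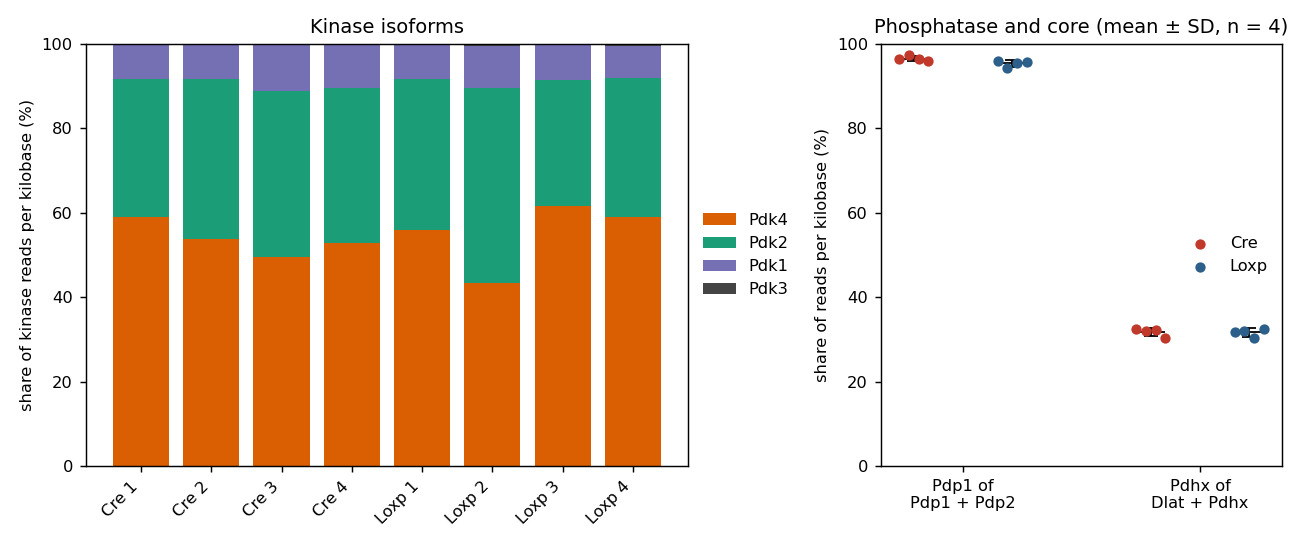
Left, the share of each kinase in the sum of Pdk1, Pdk2, Pdk3 and Pdk4 (percent of reads per kilobase, stacked to 100) in each Cre and Loxp library. Right, the shares of Pdp1 in Pdp1 plus Pdp2 and of Pdhx in Dlat plus Pdhx, with mean ± SD over 4 libraries. By joined exon length, Pdk4 is the largest kinase share except in Loxp replicate 2, and Pdp1 is at 94.2% or more in every library.

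The phosphatase mRNA was nearly all Pdp1, the calcium-sensitive isoform. Pdp1 had 3762, 4424, 5007 and 3842 normalized reads in Cre libraries, against 4248, 2816, 4915 and 3622 in Loxp libraries, a log2 fold change of 0.15 (SE 0.15, 95% confidence interval -0.19 to 0.48). Without Loxp replicate 2, the lowest library, that value was 0.00029. Pdp2, the insulin-responsive isoform, had 176, 152, 231 and 209 normalized reads in Cre libraries, against 223, 217, 292 and 200 in Loxp libraries. Cre replicates 1 and 2 lay below all Loxp libraries and the other 2 Cre libraries did not. Pdp2 gave -0.28 on the log2 scale (SE 0.16, 95% interval between -0.63 and 0.064, limma unadjusted p = 0.0997). Pdp1 made up 96.4%, 97.4%, 96.5% and 95.9% of the phosphatase mRNA per kilobase in Cre libraries, against 96.0%, 94.2%, 95.5% and 95.8% in Loxp libraries. The mean difference of 1.14 percentage points came closest of the 6 shares to the threshold (exact two-sided permutation p = 0.0571, adjusted p = 0.343). It was above 0 under all 14 other settings tried for the shares, but not all of these could move it. Leaving Pdk3 out of the kinase sum and blocking by adjacent animal numbers keep the same difference, and other lengths only rescale Pdp1 against Pdp2. The regulatory subunit Pdpr was among the least variable genes of the muscle, at percentile 1.96 of the SDs, with 6846 ± 246 normalized reads in Cre and 6601 ± 200 in Loxp muscle (SD, n = 4 each).

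Set against their target, the 4 kinases together reached 0.73 ± 0.13 of the Pdha1 level in Cre and 0.80 ± 0.10 in Loxp muscle, in reads per kilobase (SD, n = 4 each). The 2 phosphatases together reached 0.160 ± 0.010 of the Pdha1 level in Cre and 0.156 ± 0.020 in Loxp muscle. The ratio of kinase to phosphatase mRNA was 5.56, 4.60, 3.5 and 4.66 in Cre libraries, against 4.48, 5.61, 4.48 and 6.05 in Loxp libraries. The groups overlapped in each of these ratios, which are given as a description without a test. They count mRNA and say nothing of the phosphorylation of the complex.

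**Figure D4:**
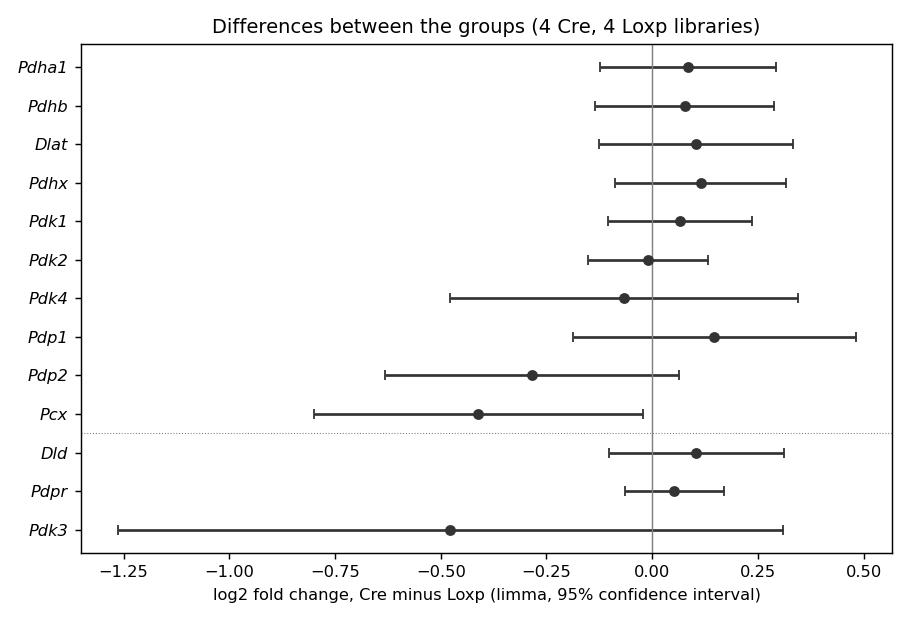
Log2 fold change of Cre over Loxp muscle from limma (horizontal axis) with 95% confidence intervals for the 10 members, above the dotted line, and for Dld, Pdpr and Pdk3. All intervals but that of Pcx (-0.80 to -0.023) span 0, and no gene passed after adjustment over all genes.

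Pcx had the largest difference among the members, and 1 library set much of it. It had 2420, 2533, 2218 and 1977 normalized reads in Cre libraries, against 2647, 4683, 2883 and 2352 in Loxp libraries. Loxp replicate 2 stood far above the rest, and Loxp replicate 4 lay inside the Cre range. The gene lies on the plus strand at chr19:4510472-4621752 (GRCm38). Pcx gave -0.41 on the log2 scale (SE 0.18, 95% interval between -0.80 and -0.023, limma unadjusted p = 0.0399, adjusted p = 0.9995). It was -0.20 without Loxp replicate 2 and -0.13 without Loxp replicates 2 and 3. These are the libraries with the most fat-cell mRNA: the 10 adipocyte markers summed to 2849 to 3838 normalized reads in Cre libraries, against 4442, 22106, 10197 and 2884 in Loxp libraries. Plin1, the coat protein of the fat-cell droplet, had 109, 41.6, 91.3 and 70.1 normalized reads in Cre libraries, against 158, 1322, 586 and 56.3 in Loxp libraries. All 9 adipocyte markers tested had a log2 fold change below 0 (median -1.82), and none of the 10 was at 0 in any library. By limma's unadjusted p, 5 of the 9 were under 0.05, against 2.91% of all tested genes, and none passed after adjustment. Fat cells are known to be rich in pyruvate carboxylase. Their part in the Pcx difference was not tested. Loxp replicates 2 and 3 were also the highest libraries for Pcx itself, so leaving them out had to raise its log2 fold change.

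The genes around pyruvate showed the same absence of calls. Of 14 genes of pyruvate entry and exit, all were tested and none passed in either direction, with a median log2 fold change of 0.0036 (8 above 0, 6 below). Pck1, which makes phosphoenolpyruvate from oxaloacetate and is abundant in fat, averaged 53.1 ± 11.5 normalized reads in Cre and 713 ± 1069 in Loxp muscle (SD, n = 4 each). The Loxp libraries held 99.6, 2298, 415 and 41.1 normalized reads of it. The mitochondrial malic enzyme Me3 averaged 1693 ± 145 in Cre and 1546 ± 129 in Loxp muscle, and the cytosolic Me1 6277 ± 1040 in Cre and 7096 ± 1231 in Loxp muscle.

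Related dehydrogenases, which share the lipoyl chemistry or the type of kinase, had 9 of 9 genes tested, none passing, and a median log2 fold change of 0.061. Of these genes 8 were above 0 and 1 below, and 51.7% of all tested genes were above 0. That median ran from -0.039 to 0.098 under the other settings of the fit. Bckdha, the E1 alpha subunit of the branched-chain complex, had 0.13 (SE 0.11), its phosphatase Ppm1k 0.14 (SE 0.13) and its kinase Bckdk 0.066 (SE 0.064). Of the genes of lipoate and thiamine supply, 13 of 14 were tested and none passed (median 0.10, 10 above 0 and 3 below). That median was 0.036 without Cre replicate 3. All 4 Cre libraries were below all Loxp libraries for 1 of them, Mecr of mitochondrial fatty acid synthesis, with 244, 254, 258 and 227 normalized reads in Cre libraries, against 267, 275, 331 and 262 in Loxp libraries. Such a separation below occurred in 0.997% of tested genes. Nfu1, an iron-sulfur carrier for lipoate synthesis, had 0.10 (SE 0.067) and Iba57 of the same list 0.17 (SE 0.14).

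Of the 9 biotin enzymes and biotin handling genes, relatives of Pcx by cofactor, none passed (median 0.0051). Mccc1 of leucine breakdown separated the groups, with 805, 796, 766 and 759 normalized reads in Cre libraries, against 837, 893, 822 and 872 in Loxp libraries (log2 fold change -0.13, SE 0.062), as did 0.997% of tested genes in this direction. The acetyl-CoA carboxylase Acaca, a lipogenic enzyme of fat cells, had 568, 572, 597 and 598 normalized reads in Cre libraries, against 635, 3272, 909 and 596 in Loxp libraries, so that Loxp replicate 2 was again highest. Its muscle isoform Acacb averaged 12225 ± 1123 in Cre and 12653 ± 346 in Loxp muscle (SD, n = 4 each).

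The factors known to control Pdk4 did not pass either (10 of 10 tested, median log2 fold change 0.088, 8 above 0 and 2 below). Foxo1, a forkhead factor that activates Pdk4, had 444, 491, 477 and 543 normalized reads in Cre libraries, against 511, 627, 523 and 603 in Loxp libraries. Its log2 fold change was -0.21 (SE 0.095, limma unadjusted p = 0.0485, adjusted p = 0.9995), and the groups overlapped through Cre replicate 4. Cebpb had 0.23 (SE 0.15) and the coactivator Ppargc1a 0.12 (SE 0.085). Genes that fasting or PPAR activation raises together with Pdk4 had a median of -0.077 over 12 tested, 5 above 0 and 7 below, and none passed. Ucp3, the mitochondrial carrier that follows fatty acid supply, averaged 1555 ± 280 normalized reads in Cre and 1807 ± 413 in Loxp muscle. The atrophy ligase Trim63 averaged 7788 ± 990 in Cre and 8833 ± 2031 in Loxp muscle (SD, n = 4 each). Angptl4, a lipase inhibitor that fat cells also make, had 21.9, 17.1, 54.8 and 22 normalized reads in Cre libraries, against 36.2, 259, 122 and 20.6 in Loxp libraries. Its 2 highest libraries, Loxp replicates 2 and 3, were also those with the highest adipocyte marker sums, whose part in this value was not tested. The hypoxia targets that accompany Pdk1 had a median of -0.0033 over 10 tested, with 5 on each side of 0 and none passing. Vegfa had 0.16 (SE 0.10), Bnip3 0.079 (SE 0.093) and the glucose transporter Slc2a1 0.12 (SE 0.15).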

How the data were processed

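RNA from white quadriceps of 8 animals was sequenced from stranded libraries, per the labels' protocols. Per the submitters' processing notes, the tools were FastQC, cutadapt, STAR, HTSeq and DESeq2 and the build GRCm38, without roles or versions. The sources used here give no annotation for the counting. The deposited values are on a log2 scale with 1 added to each library-scaled read count. The values themselves show this: with the log undone, 100% of the values below 1000 reads lay within 0.1 of a whole multiple of 1 read. The submitters' use of DESeq2 was not repeated. Total reads per library are the recovered reads.

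The test of Cre against Loxp was limma's (version 3.58.1, R 4.3.3, variances moderated with a trend) on the log2 values, for the 13638 genes that reached 10 normalized reads in 4 or more libraries. Benjamini-Hochberg adjustment ran over all genes, and 0.05 was the threshold. Fold changes carry the pseudocount of 1 and so understate changes of genes with few reads. Shares were tested with an exact permutation test and adjusted over the 6 shares. Exon lengths (union of exons) and positions came from GENCODE M21 on GRCm38, which matched all 158 genes looked up. 27 gene names turned into dates were restored by NCBI gene number.

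The members and lists were chosen with earlier results of these data known. All members are named. Of each pathway list the 3 genes with the smallest p are named. Ldhb, Myh2, Mb, Ckmt2, Csrp3, Plin1, Mpc1 and Mpc2 were picked with their values in view. Each library is 1 replicate, from its own numbered animal per the labels, and no 2 libraries of a group agreed within sampling noise (chi-square per gene 25.8 to 78.6), so none was taken as a repeat deposit. No batch is labelled. Confidence floors of 3 reads cover counting error only. Alternatives were pseudocounts of 0.5 and 10, no filter, a filter on a mean of 100 normalized reads, TMM and quantile scaling, library weights, limma-voom on recovered reads, a block of adjacent animal numbers and leaving out libraries.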

Additional observations from a re-analysis of the deposited data

Results flagged for a closer look

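Each of the values here stood apart from the other 3 libraries of its group, by a gap to the nearest library beyond Dixon's 95% critical value. The check was made in 84 groups of 4 values, and chance alone flags about 1 in 20 groups. None of the 10 members and none of the shares was among them. In Loxp replicate 2, Pck1 had 2298 normalized reads, against 41.1 to 415 in the other Loxp libraries, and Acaca had 3272, against 596 to 909. The 10 adipocyte markers summed highest in the same library (22106 normalized reads), and their part in these values was not tested. Kbtbd12 had 1840 normalized reads in Loxp replicate 2, against 1715 to 1730 in the other Loxp libraries. In Cre replicate 3, where the subunit genes of the complex were highest, Bnip3 had 6981 normalized reads, against 5740 to 5899 in the other Cre libraries, and Angptl4 had 54.8, against 17.1 to 22.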

How the results depend on the processing

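Under all 19 other settings of the fit across genes, 2 genes were called, both Acot2 and Kbtbd12, and no member was called. Acot2 ran from -2.29 to -1.94. Pcx stayed below 0 in all 19 (-0.53 to -0.13) and Pdp2 likewise (-0.50 to -0.16), though the other filters and the replicate block cannot move these estimates. Values close to 0 changed sign, and the cause was not tested. Leaving out 1 library each gave -0.0041 to 0.14 for Pdhb, -0.054 to 0.019 for Pdk2 and -0.27 to 0.052 for Pdk4 on the log2 scale. The same gave 0.017 to 0.14 for Pdha1, 0.030 to 0.19 for Dlat, 0.031 to 0.18 for Pdhx and 0.022 to 0.12 for Pdk1, all above 0. Without Cre replicates 3 and 4, which had the most slow-fibre mRNA (Myh7 at 2133 and 7430 normalized reads), the values were -0.013 for Pdha1, -0.053 for Dlat, -0.0094 for Pdhx, -0.030 for Pdk1, 0.043 for Pdk2 and 0.11 for Pdk4, and with library weights Pdk2 was at 0.0012. Leaving out 1 library moved the difference in share to between -0.31 and 0.63 percentage points for Pdhx, -1.68 and 3.84 for Pdk2 and -5.02 and 1.12 for Pdk4. Without Cre replicates 3 and 4 it was -0.56 for Pdk1, -0.78 for Pdk2 and 1.46 for Pdk4, and without Loxp replicates 2 and 3 it was -0.33 for Pdhx. Among lists, leaving out 1 library carried the medians for pyruvate entry and exit, biotin enzymes, fasting targets and hypoxia targets across 0. The median for lipoate and thiamine supply was 0.10, against 0.036 without Cre replicate 3, 0.036 without Loxp replicates 2 and 3 and 0.012 without Cre replicates 3 and 4. No share passed under any setting (lowest adjusted p = 0.286, exact permutation tests). Lengths of the longest coding transcript were added after seeing the data and turned the sign of no difference in share. The shares themselves depend on the length.

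The labels do not say that adjacent animal numbers mark litters. Deviations of adjacent animals correlated at -0.081, 0.15, 0.19 and -0.083 over genes, and those of other Cre and Loxp animals at -0.22 to 0.19. The animal numbers were therefore not taken to pair the samples, and the block is given as an alternative. With the replicate block the fold changes kept their values and 2 genes were called. Among members Pdp2 (limma unadjusted p = 0.0442) rather than Pcx (0.058) was under 0.05, none after adjustment. The block raised the SE of Pcx and Pdk2 and lowered that of the other members, for Pdp1 from 0.15 to 0.079. An exact sign-flip test over 4 pairs cannot give less than p = 0.125, the value it gave for the Pdp1 share. With 4 libraries a group, the confidence intervals of the members reach from 0.14 to 0.41 on the log2 scale to either side of the estimate. These intervals are not adjusted over genes, so they are narrower than the differences that a call needs.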

Other observations

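Ldhb, the lactate dehydrogenase subunit typical of oxidative fibres, was chosen after its values were seen. It had 571, 926, 3009 and 2723 normalized reads in Cre libraries, against 751, 289, 3776 and 2140 in Loxp libraries. The 4 libraries highest for Ldhb were Cre replicates 3 and 4 and Loxp replicates 3 and 4, which were also the 4 highest for Myh2. Its log2 fold change was 0.33 (SE 0.74), and it did not pass (limma adjusted p = 0.9995).

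The genes most like Pdk4 and Pcx over the 8 libraries were looked up among 9676 others that average at least 100 normalized reads, by Pearson's r of the log2 values. Since they are the top of so many, r is a description. Lrrcc1 (0.959), Scamp2 (0.948), Dok7 (0.939), Fbxo30 (0.939) and Srprb (0.936) were closest to Pdk4. Mmd (0.979), Chp1 (0.971), Fbxo21 (0.967), Fam84b (0.954) and Tmem120a (0.953) were closest to Pcx. Mmd had 335, 335, 272 and 252 normalized reads in Cre libraries, against 336, 856, 351 and 273 in Loxp libraries. Loxp replicate 2 was the highest library for Mmd, as for Pcx.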
